A study of Mus musculus with 12 samples.

Results

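The integrins and laminins are the receptors with which cells hold on to the matrix and to each other, and the chains of the matrix sheet that many of these receptors bind. They were taken as every probe whose gene name on the array was that of an integrin alpha or beta chain (Itga or Itgb with 1 or 2 further characters) or of a laminin alpha, beta or gamma chain (Lama, Lamb or Lamc with 1 number). This gave 80 of 41174 probes and 37 genes, of which 27 were integrin genes and 10 laminin genes. A low-signal filter kept 74 of the 80 probes and all 37 genes, out of 20582 genes tested. Lamb1 carries another name on this array (Lamb1-1) and so lies outside the rule. Its value is given with the laminin chains. Itgbl1 met the rule by its name, but its product is a secreted protein that resembles a beta chain and is not a receptor subunit.

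The RNA came from flash-frozen lung tumours of mice of C57/129 background. The mice carried a K-ras G12D allele that stays silent until Cre acts, and all of them received a Cre-carrying adenovirus through the trachea or nose at 6 to 12 weeks of age. In the KO group the conditional Dnmt3a alleles were homozygous, and the WT group was wild type at Dnmt3a. The virus was the only source of Cre that the labels name, and recombination was not measured on these arrays. Whole tumours were taken, with every cell type in them. KO and WT RNA were hybridised together on 12 Agilent arrays, and KO took the Cy5 dye on 6 of them and Cy3 on the remaining 6. Going by age and sex in the labels, the arrays fall into 4 sets, called pairs A to D here (the unit of age is not stated). Pair A set KO age 47.7 against WT age 42.6 on 4 arrays, and pair B set KO age 27 against WT age 41.3 on 4 arrays. Pair C set KO age 27 against WT age 47.6 on 2 arrays, with a male KO and a female WT animal, and pair D set KO age 29.1 against WT age 37.3 on 2 arrays. All other animals were male. The KO animal was the older one in pair A and the younger one in pairs B, C and D, so genotype and age cannot be told apart within any pair. The labels call the arrays biological replicates but do not say if arrays within a pair used different animals, and pairs B and C may share a KO animal. The p-values thus cover the spread among these arrays, and part of it may be technical.

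Pair A lay on slide 1, pair B on slide 2 and pairs C and D on slide 3, so slide and pair cannot be told apart for pairs A and B. The share of probes well above background was 81.6% to 89.6% on slides 1 and 2 and 57.6% to 71.3% on slide 3. No probe was saturated (0 on each array). Dnmt3a, the gene named in the KO label, stood at -0.21 ± 0.046 as log2 of KO over WT (SE over 12 arrays, limma adjusted p = 0.0212), with all 12 arrays below 0. The sources used here do not place its probe relative to the removed part, so the value does not check the removal.

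An integrin is a pair of 1 alpha and 1 beta chain that spans the cell membrane, grips a ligand outside the cell and couples it to the cytoskeleton inside. Laminins are cross-shaped trimers of an alpha, a beta and a gamma chain and form the basement membrane under epithelia and around vessels. In the lung, the alpha 6 beta 4 integrin and laminins that hold the chains Lama3 and Lamb3 anchor epithelial cells to the basement membrane, Lama4 is a chain of vessel basement membranes, and Itgax (CD11c) marks alveolar macrophages and dendritic cells. DNA methyltransferases such as Dnmt3a act on cytosines that are followed by guanine.

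Of the 37 genes, 4 were higher and 3 were lower in KO tumours at a limma adjusted p under 0.05 over all genes. Those 7 are 7 of 37, beside a background of 7.15% called among all genes tested (3.37% higher and 3.78% lower). The genes that rose were Itga11, Itga9, Itgb4 and Lamc1, and those that fell were Lama4, Itgax and Itga5. At an unadjusted p under 0.05 there were 12 of 37 genes, against 4623 of all 20582. The median log2 ratio was -0.088 over the 37 genes and -0.00561 over all genes, and 11 of the 37 were above 0. Itga11, Itga9 and Itgb4 moved by more than 1 on the log2 scale, while Lamc1 and Itga5 moved by about 0.22. The KO and WT signal ranges overlapped for all 37 genes. How often they overlap among all genes tested was not counted, so this does not set the family apart. With each array centred on its median and no loess, 1 gene rose and 0 fell, and with pair means in place of arrays 0 of 37 genes passed (limma, 10 at an unadjusted p under 0.05). With pairs A and B alone, leaving out the slide with fewer probes above background, 2 of 37 passed, both higher. Without a single array the count lay between 3 and 7, and it dropped to 3 or 4 without replicate 1, 3, 4, 7, 8, 9, 11 or 12.

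**Figure D1:**
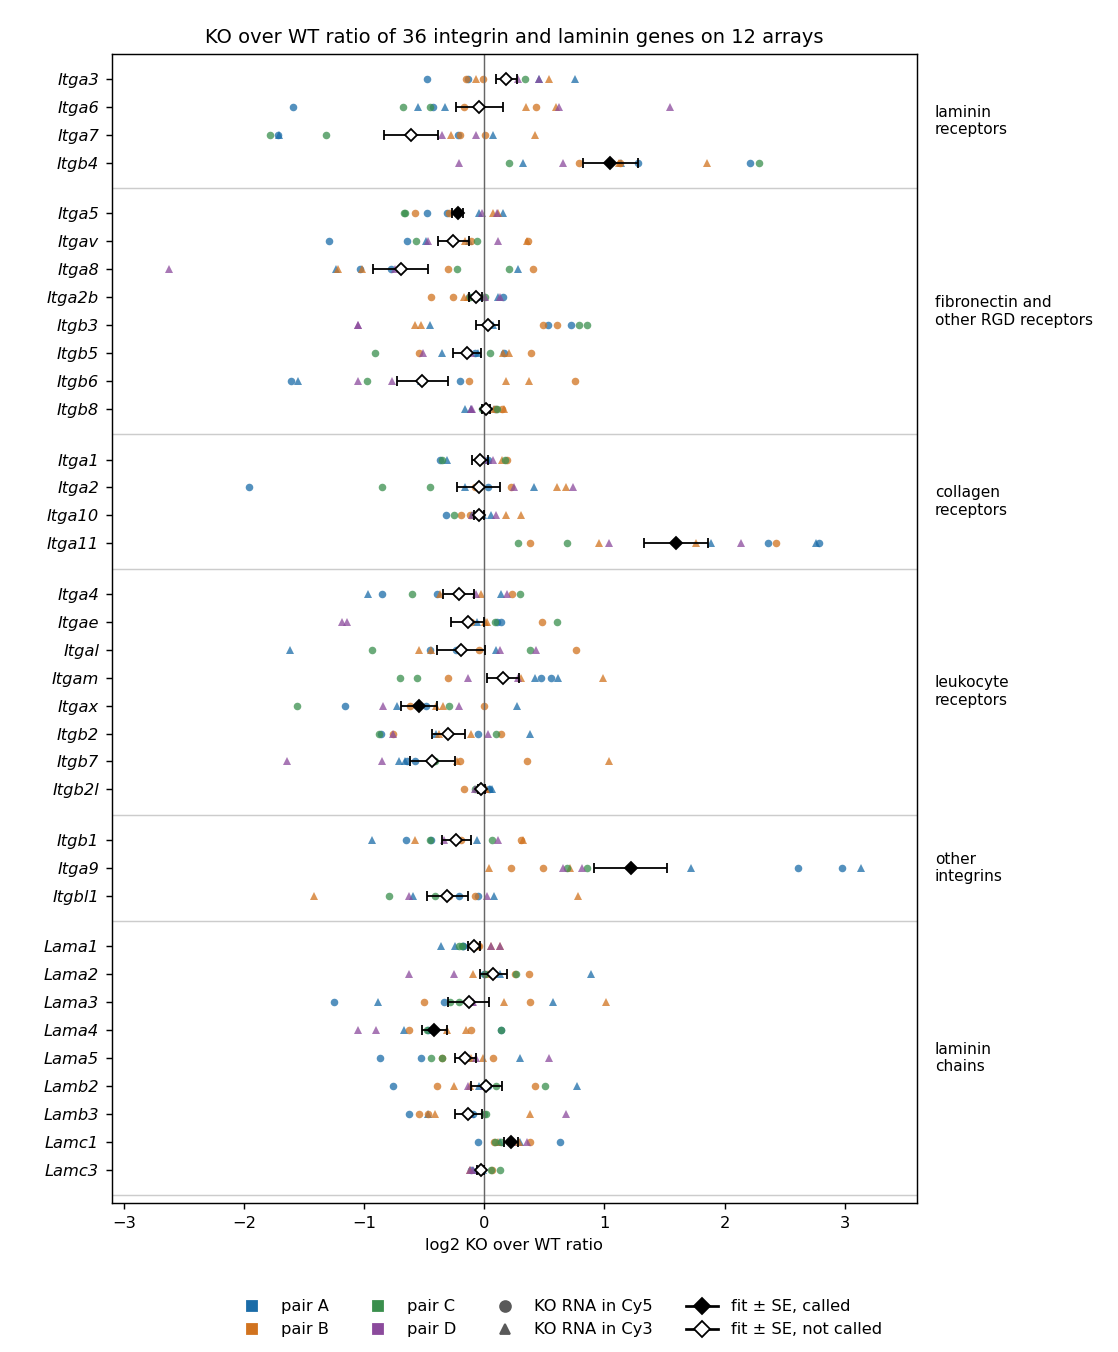
Each of 36 rows is a gene, grouped by the role of its product, and the horizontal axis is the log2 KO over WT ratio. Small points are the 12 arrays, coloured by pair and shaped by the dye of the KO RNA, and diamonds are the fitted mean with its SE, filled where the adjusted p was under 0.05. Itga11 and Itga9 lie above 0 on all 12 arrays. Their points spread over more than 2 log2 units, as do those of Itga6, Itga7, Itga8, Itgb6 and some other genes.

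Among the called genes, a RefSeq promoter entry (assembly GRCm38.p6) was at hand for Itga11, Itga9, Itga5 and Itgax. The 250 bases before the start of each are shown because they hold the CG dinucleotides that a DNA methyltransferase can act on, written in capitals in the lines that follow. Itga11 (chr9:62677605-62677854, plus strand) holds 12, Itga9 (chr9:118711442-118711691, plus strand) 10, Itga5 (chr15:103366792-103367041, minus strand) 11 and Itgax (chr7:128129300-128129549, plus strand) 5.
Itga11: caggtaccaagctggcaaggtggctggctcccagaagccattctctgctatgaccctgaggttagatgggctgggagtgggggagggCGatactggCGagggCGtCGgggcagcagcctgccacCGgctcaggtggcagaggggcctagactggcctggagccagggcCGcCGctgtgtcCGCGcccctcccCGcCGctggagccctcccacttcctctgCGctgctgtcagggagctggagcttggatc
Itga9: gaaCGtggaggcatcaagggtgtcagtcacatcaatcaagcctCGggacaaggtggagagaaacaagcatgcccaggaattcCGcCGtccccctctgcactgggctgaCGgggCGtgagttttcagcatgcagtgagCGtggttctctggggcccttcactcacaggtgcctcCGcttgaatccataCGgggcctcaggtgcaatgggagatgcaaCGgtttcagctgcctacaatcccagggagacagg
Itga5: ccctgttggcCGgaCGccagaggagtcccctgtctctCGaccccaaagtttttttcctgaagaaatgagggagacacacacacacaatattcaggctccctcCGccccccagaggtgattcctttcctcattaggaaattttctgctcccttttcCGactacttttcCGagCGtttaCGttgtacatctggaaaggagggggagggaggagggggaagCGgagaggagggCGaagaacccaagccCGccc
Itgax: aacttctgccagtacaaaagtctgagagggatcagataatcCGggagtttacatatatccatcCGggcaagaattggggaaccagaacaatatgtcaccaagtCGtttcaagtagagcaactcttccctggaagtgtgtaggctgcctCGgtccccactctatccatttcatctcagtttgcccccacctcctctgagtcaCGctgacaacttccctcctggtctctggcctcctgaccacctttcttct

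The letters CG, which read the same on both strands, occurred at least once in 92.1% of the 32851 promoter windows of this length, with a median of 6. At least as many as in Itga11 were held by 33.5% of all windows, as in Itga9 by 37.8%, as in Itga5 by 35.6% and as in Itgax by 55.6%. The 24 genes of the 37 with an entry had between 0 (Lama2) and 22 (a start of Itga3), with a median of 6 over their starts. These include 3 further starts, so some genes count more than once. Methylation was not measured on these arrays, and the counts describe the letters only.

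Among the laminin receptors, Itgb4 rose and the 3 alpha chains Itga3, Itga6 and Itga7 did not pass the test. Itgb4 is the beta chain that pairs with alpha 6 in hemidesmosomes, the rivets between epithelial cells and the basement membrane. Its normalized log2 signal was 11.71 at the lowest, 12.41 at the median and 12.79 at the highest in KO tumours, against 10.02, 11.28 and 12.50 in WT tumours. The KO signals lay in a narrow band near the top of the WT range, and the lowest WT signal was more than 1 log2 unit below the lowest KO signal. The ratio was 1.05 ± 0.23 (SE, n = 12 arrays, limma adjusted p = 0.0216), a 2.07-fold rise, higher on 11 of 12 arrays. Single arrays spanned -0.21 to 2.29, and the only array below 0 was of pair D. Within slides 1, 2 and 3 the ratio was 1.24, 1.22 and 0.74. The call held without any single array and ended without pair A (0.96, adjusted p = 0.131) or pair B (0.98, adjusted p = 0.0749).

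Itga6, the alpha chain that Itgb4 needs as a partner, had a log2 ratio of -0.040 ± 0.20 (limma adjusted p = 0.937). Single arrays ran between -1.59 and 1.55, and the pair values were -0.72, 0.30, -0.34 and 0.86 in pairs A to D. The sign therefore differed between pairs, although this difference did not pass the F test over pairs. Itga3, which with Itgb1 binds the epithelial laminins, stood at 0.18 ± 0.086 (adjusted p = 0.23). A second Itga3 probe, 327 bases 5′ of the used one, gave 0.17. Another, 9498 bases 5′, had the opposite sign at -0.13 ± 0.057 (limma over all probes, adjusted p = 0.213). Itga7, a laminin receptor known from muscle, stood at -0.61 ± 0.23 (adjusted p = 0.13). It was below 0 on 9 of 12 arrays, and the values of -1.72, -1.71, -1.78 and -1.32 on replicates 3, 2, 9 and 10 stood apart from the remaining 8, which lay between -0.35 and 0.43. The spread of these 3 chains over arrays was large beside their means.

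Itga5, the alpha chain of the main fibronectin receptor, was the only 1 of 8 receptors for fibronectin and other RGD ligands to pass the test, and it fell. Its log2 signal was 7.49 at the lowest, 7.75 at the median and 8.32 at the highest in KO tumours, against 7.66, 8.00 and 8.39 in WT tumours. The ranges overlap over most of their length. The ratio was -0.22 ± 0.044 (SE, n = 12 arrays, limma adjusted p = 0.0151), which is 1.17-fold lower, and 8 of 12 arrays were below 0. The values followed the dye. On the 6 arrays with KO RNA in Cy5 the ratio lay between -0.67 and -0.29 with a mean of -0.50, and on the 6 with KO RNA in Cy3 between -0.046 and 0.15 with a mean of 0.063. The fit averages both orientations, and without its dye term the call was lost (-0.22, adjusted p = 0.205). Within slides 1, 2 and 3 the ratio was -0.17, -0.17 and -0.31, and the call also ended without pair A, B or C (adjusted p = 0.0662, 0.0542 and 0.0571).

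The other RGD receptors did not pass. Itga8, whose ligand in lung and kidney is nephronectin, had the most negative value of the family at -0.70 ± 0.23 (limma adjusted p = 0.091) and was below 0 on 9 of 12 arrays. It ran between -2.62 on replicate 11 and 0.40 on replicate 7. Without replicate 2 it would have passed (-0.83, adjusted p = 0.0383). Itgb6, the epithelial chain that with Itgav activates latent TGF-beta, stood at -0.52 ± 0.21 (adjusted p = 0.174), with values of -0.97, 0.30, -0.79 and -0.87 in pairs A to D. Pair B was the only pair above 0, and with pair B left out Itgb6 passed (-0.90, adjusted p = 0.0357). Itgav itself stood at -0.26 ± 0.13 (adjusted p = 0.288) and Itgb5 at -0.14 ± 0.12 (adjusted p = 0.539). Itgb8 (0.014 ± 0.037) and Itga2b (-0.070 ± 0.053), the platelet fibrinogen receptor chain, had their lowest single arrays at -0.16 and -0.45 and their highest at 0.16 and 0.16, and each was well above background on 8 to 10 arrays.

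Itgb3, the beta chain of the platelet fibrinogen receptor and of the vitronectin receptor of vessels and osteoclasts, stood at 0.027 ± 0.093 (limma adjusted p = 0.905). The ratio of its brightest probe followed the dye. It lay between 0.49 and 0.86 on the 6 arrays with KO RNA in Cy5 and between -1.05 and 0.070 on the 6 with KO RNA in Cy3. A second Itgb3 probe, named through a cDNA clone and placed 3182 bases further 3′ on build mm7, was below 0 on 12 of 12 arrays at -0.59 ± 0.099 (limma over all probes, adjusted p = 0.00684). With the mean of both probes as the value of the gene, Itgb3 fell (-0.28, adjusted p = 0.0303). The 2 probes of this gene thus gave different values. The brightest did not pass the test in either direction, and the second fell.

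Itga11 was the most strongly changed gene of the family, and the other 3 collagen receptor chains did not pass. Itga11 forms with Itgb1 a receptor for fibrillar collagen that is known from fibroblasts. Its log2 signal was 8.89 at the lowest, 10.97 at the median and 11.94 at the highest in KO tumours, against 8.51, 8.92 and 10.62 in WT tumours. Most WT signals lay near the bottom of this range, with the WT RNA of pair C and of a pair B array as the exceptions. The ratio was 1.60 ± 0.27 (SE, n = 12 arrays, limma adjusted p = 0.00619), a 3.02-fold rise, above 0 on 12 of 12 arrays. Single arrays spanned 0.28 to 2.79, lowest in pair C. Within slides 1, 2 and 3 the ratio was 2.45, 1.38 and 1.04, and of the 7 called genes this was the only one to pass with arrays centred on their median (1.64, adjusted p = 0.0276). The call held without any single array and ended without pair A (1.20, adjusted p = 0.0703). Itga1, Itga2 and Itga10, also collagen receptor chains, had ratios of -0.036 ± 0.065, -0.047 ± 0.18 and -0.044 ± 0.043. Itga2 reached -1.96 on replicate 1, far below its other arrays, and Itga10 was well above background for KO RNA on 7 arrays and for WT RNA on 5.

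Itgax fell, and the other 7 leukocyte integrin genes measured did not pass. Its log2 signal was 10.27 at the lowest, 11.16 at the median and 11.81 at the highest in KO tumours, against 10.92, 11.52 and 12.89 in WT tumours. The WT range was shifted upward as a whole, with much overlap. The ratio was -0.54 ± 0.15 (SE, n = 12 arrays, limma adjusted p = 0.0495), which is 1.45-fold lower, and below 0 on 11 of 12 arrays. Within slides 1, 2 and 3 it was -0.53, -0.34 and -0.73. The value lay just inside the threshold, and the call ended without any 1 of replicates 1, 3, 4, 6, 7, 8, 9, 11 and 12 (-0.56 to -0.44, adjusted p = 0.059 to 0.109). It also ended without any 1 of the 4 pairs (-0.63 to -0.48), without the filter on dim probes (adjusted p = 0.0502), without the dye term (adjusted p = 0.0509) and with the mean of both kept probes as the value of the gene (-0.33, adjusted p = 0.0512).

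Itgb2, the beta chain that Itgax, Itgam and Itgal share, stood at -0.30 ± 0.14 (limma adjusted p = 0.22) and was below 0 on 8 of 12 arrays. Itgal, its lymphocyte partner, stood at -0.20 ± 0.20 (adjusted p = 0.629). Itgam, its partner on neutrophils and macrophages, stood at 0.15 ± 0.13 (adjusted p = 0.558) and was the only leukocyte chain with a mean above 0. A second Itgam probe, 542 bases 5′ of the used one, gave -0.025 ± 0.051 (limma over all probes, adjusted p = 0.841). Itgb7, which pairs with Itga4 or Itgae on lymphocytes that home to mucosa, stood at -0.43 ± 0.19 (adjusted p = 0.204) and was below 0 on 10 of 12 arrays. The 2 arrays above 0 were both of pair B, and with that pair left out Itgb7 passed (-0.74, adjusted p = 0.0224), as it did without replicate 6 of that pair (-0.57, adjusted p = 0.0306). Itga4 stood at -0.21 ± 0.13, Itgae at -0.14 ± 0.14 and Itgb2l, a beta 2-like chain, at -0.025 ± 0.029. Itgae was lowest in pair D, with -1.18 and -1.14 on its 2 arrays, and its other 9 measured values lay between -0.11 and 0.60.

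Itga9, the alpha chain of a receptor for tenascin C and other ligands, rose. Its log2 signal was 11.54 at the lowest, 13.79 at the median and 15.24 at the highest in KO tumours, against 9.82, 13.50 and 14.42 in WT tumours. The 4 arrays of pair A held the low end of both ranges, with WT signals of 9.82 to 10.32 there. The ratio was 1.22 ± 0.30 (SE, n = 12 arrays, limma adjusted p = 0.0353), a 2.33-fold rise, and above 0 on 12 of 12 arrays. Within slides 1, 2 and 3 it was 2.61, 0.37 and 0.75, so that the pair with the lowest signals had the largest ratios (1.72 to 3.14). Without pair A the ratio was 0.57 (adjusted p = 0.0412). The call ended without any 1 of replicates 1, 2, 3, 4, 8, 9 and 12 (1.06 to 1.29, adjusted p = 0.0504 to 0.0705) and without pair C or pair D (adjusted p = 0.0706 and 0.0709). Itgb1, the common beta chain with which Itga9, Itga11, Itga5 and most other alpha chains pair, stood at -0.23 ± 0.12 (adjusted p = 0.29). Itgbl1 stood at -0.31 ± 0.17 (adjusted p = 0.327).

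**Figure D2:**
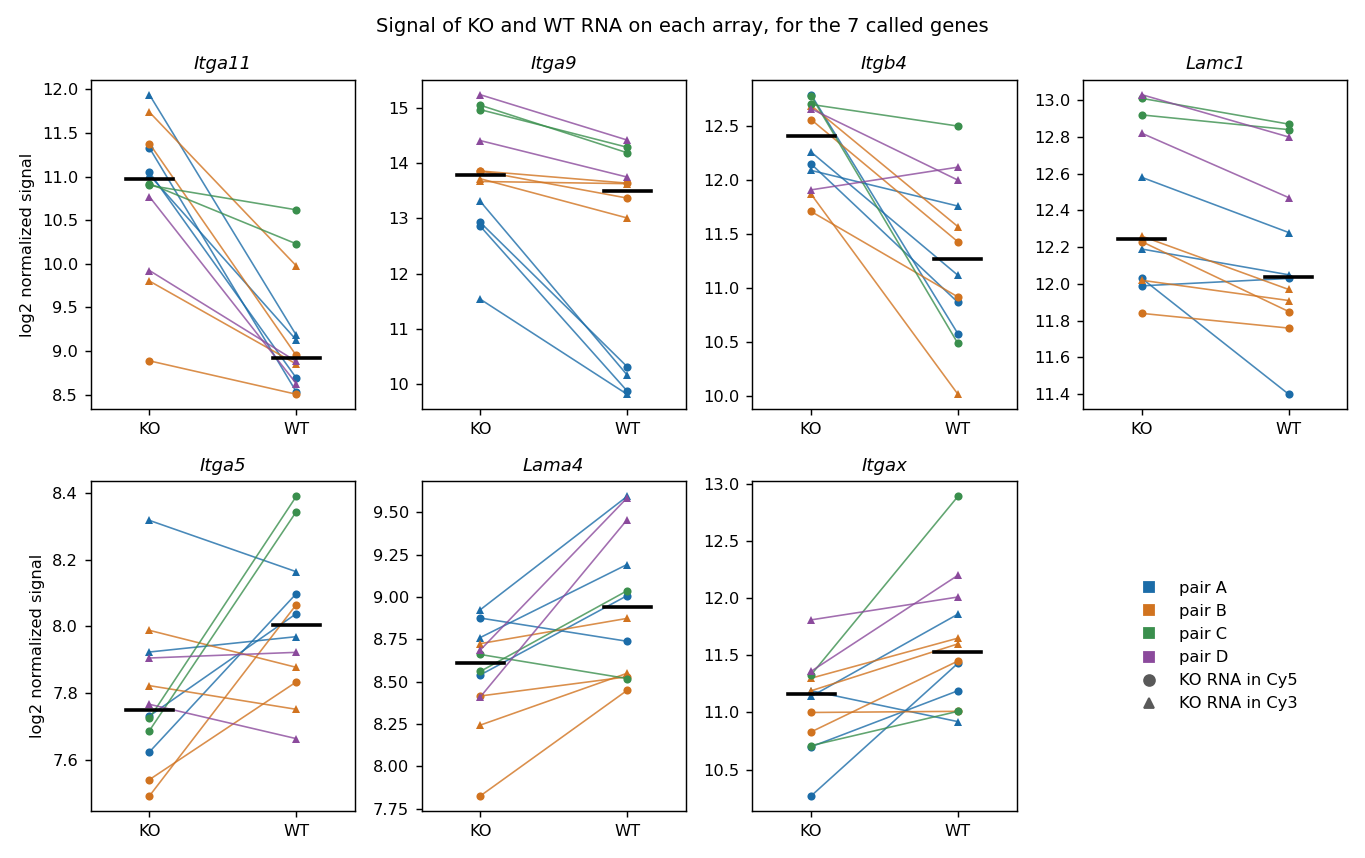
Each panel is a called gene, with the normalized log2 signal of KO RNA at the left and of WT RNA at the right. Lines join the KO and WT RNA of an array, colours mark pairs, shapes mark the dye of the KO RNA and black bars are medians over 12 arrays. The KO and WT ranges overlap in every panel, and the pair A arrays of Itga9 lie below those of the other pairs.

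Of the 10 laminin chains measured under the rule, Lamc1 rose, Lama4 fell and 8 did not pass. Lama4 is an alpha chain of the basement membranes of vessels and muscle. Its log2 signal was 7.83 at the lowest, 8.61 at the median and 8.92 at the highest in KO tumours, against 8.45, 8.94 and 9.59 in WT tumours. The highest KO signal was just below the WT median. The ratio was -0.42 ± 0.10 (SE, n = 12 arrays, limma adjusted p = 0.0342), which is 1.33-fold lower, and below 0 on 10 of 12 arrays. Within slides 1, 2 and 3 it was -0.36, -0.30 and -0.57. Pair D held the lowest values, at -0.90 and -1.05. The call ended without any 1 of replicates 2, 3, 4, 7, 9, 11 and 12 (-0.43 to -0.37, adjusted p = 0.0535 to 0.0733), without any 1 of the 4 pairs (-0.46 to -0.31), and with local backgrounds as deposited (-0.27, adjusted p = 0.0906). It ended too with the mean of the kept probes as the value of the gene (-0.25, adjusted p = 0.0523).

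Lamc1, the gamma chain of most laminins, had log2 signals of 11.84 at the lowest, 12.24 at the median and 13.03 at the highest in KO tumours, against 11.40, 12.04 and 12.87 in WT tumours. The difference was small beside the spread of signals between arrays, but it had the same sign on 11 of 12 arrays. The ratio was 0.22 ± 0.061 (SE, n = 12 arrays, limma adjusted p = 0.0489), a 1.17-fold rise, with 0.25, 0.21 and 0.20 within slides 1, 2 and 3. The call ended without any 1 of replicates 1, 2, 4, 6, 7, 8, 9, 10, 11 and 12 (0.18 to 0.24, adjusted p = 0.052 to 0.091). It also ended without any 1 of the 4 pairs (0.21 to 0.25) and, by a narrow margin, with the authors' own ratios (0.23, adjusted p = 0.0501) and over genes well above background on all 12 arrays (adjusted p = 0.0518).

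Lama3 and Lamb3, chains of epithelial laminin at hemidesmosomes, did not pass the test. Lama3 stood at -0.13 ± 0.17 (limma adjusted p = 0.725) and Lamb3 at -0.13 ± 0.11 (adjusted p = 0.55). Lama5, the alpha chain of most adult basement membranes, stood at -0.16 ± 0.088 (adjusted p = 0.323) and Lamb2, its usual beta partner around vessels and muscle, at 0.016 ± 0.13 (adjusted p = 0.962). Lama1 (-0.088 ± 0.049), known from embryonic basement membranes, was well above background for KO RNA on 5 arrays and for WT RNA on 6. Lama2 (0.077 ± 0.11), the alpha chain of muscle, and Lamc3 (-0.029 ± 0.031) also stayed near 0. Lamb1, which the rule leaves out by its array name, stood at -0.60 ± 0.13 (adjusted p = 0.024) and was below 0 on 11 of 12 arrays. It pairs with both Lama4 and Lamc1 in the laminin of young vessels.

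Whether the KO over WT ratio differed between the 4 pairs was asked with an F test over pair coefficients. Of the 37 genes, 0 passed at a limma adjusted p under 0.05, beside a background of 0.342% of genes tested. An unadjusted p under 0.05 was found for 9 of 37, against 2506 of all 20479 genes in this test. Itga9 came closest, with pair values of 2.61, 0.37, 0.68 and 0.82 in pairs A to D (limma F test adjusted p = 0.0521). It passed with Agilent's processed signals (adjusted p = 0.033), with median centring (0.0149), without the dye term (0.026) and with the authors' ratios (0.0465). Itga11 had pair values of 2.45, 1.38, 0.41 and 1.67, and Itgb4 of 1.24, 1.22, 1.12 and 0.35. Itgax (-0.53, -0.34, -0.80 and -0.66), Lama4 (-0.36, -0.30, -0.23 and -0.91), Itga5 (-0.17, -0.17, -0.42 and -0.20) and Lamc1 (0.25, 0.21, 0.088 and 0.32) kept their sign in all 4 pairs, as the genes that rose did. Pairs C and D each ran with a single dye orientation, so their values rest on the dye term fitted over all arrays. For Itga5, the arrays of pair D themselves read -0.0165 and 0.103, so its sign in that pair comes from the dye term.

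**Figure D3:**
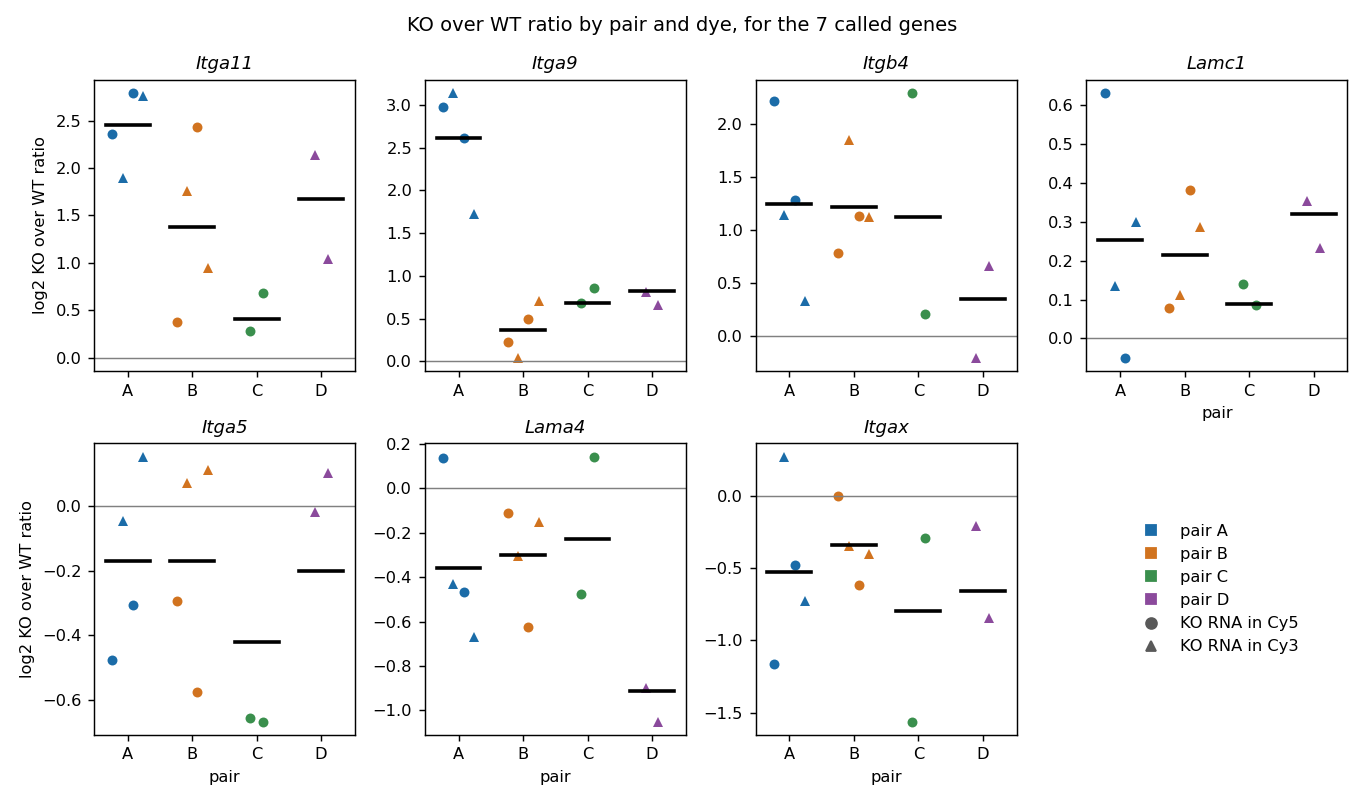
Each panel is a called gene, with pairs A to D along the horizontal axis and the log2 KO over WT ratio on the vertical axis, scaled per panel. Points are arrays, circles with the KO RNA in Cy5 and triangles with it in Cy3, and black bars are the pair coefficients of the fit with a dye term. Itga9 stands apart in pair A, and in Itga5 all circles lie below all triangles.

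At the level of single probes, 7 of 74 kept probes passed (limma over all probes), beside a background of 5.72%. They were 2 probes of Itgb4 and 1 each of Itga11, Itga9, Itga5, Lama4 and Itgb3, and 22 of the 37 genes had more than 1 kept probe. Adjusted over all probes, the used probes of Itgax (adjusted p = 0.054) and Lamc1 (adjusted p = 0.0518) fell just outside the threshold. On build mm7 the used Itgb4 probe lies at chr11:116117278-116117337 and the second called probe overlaps it, so these 2 are not independent, and the second gave 0.97 ± 0.21 (adjusted p = 0.0216). Another Itgb4 probe, 13660 bases further 5′ along the gene, gave 0.13 ± 0.050 (adjusted p = 0.162) and was above 0 on 11 of 12 arrays. The used Lama4 probe (chr10:38885787-38885846) gave -0.42, and probes 762, 10991 and 51820 bases further 5′ gave -0.37, -0.24 and 0.027. The other Itgax probe, 16700 bases 5′ of the used one (chr7:124247096-124247155), gave -0.12 ± 0.059 (adjusted p = 0.286). In Itga8 and Itgb6, too, the farthest 5′ probe was near 0 (-0.032 and -0.011), while both probes nearer the 3′ end were at -0.52 or lower. The 2 probes of Itga7 gave -0.61 and -0.59. Labelling began from an oligo-dT primer at the 3′ end of transcripts, and the part of probe position in these differences was not tested. Itga11 (chr9:62812215-62812274), Itga9 (chr9:118578986-118579045), Itga5 (chr15:103333409-103333468) and Lamc1 (chr1:153180095-153180153) had 1 probe each, so their values had no second probe to be set against.

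**Figure D4:**
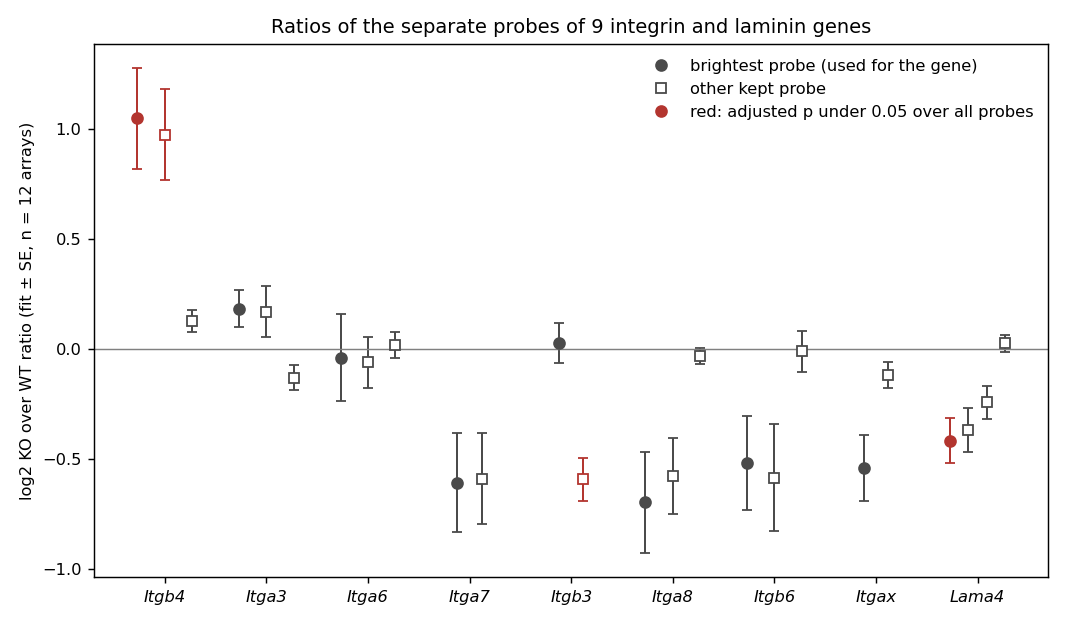
Points are the fitted log2 KO over WT ratio of single probes with SE over 12 arrays, for 9 genes with more than 1 kept probe. Filled circles are the brightest probe, used for the gene, open squares the other kept probes, and red marks an adjusted p under 0.05 over all probes. Both Itga7 probes lie together, while those of Itga3, Itgax, Itgb3, Itgb4, Itga8, Itgb6 and Lama4 spread.

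Of 6 hemidesmosome partner genes measured, 0 rose and 2 fell, with a median of -0.17. Plec, the plakin that links the beta 4 chain to keratin filaments, fell by 0.45 on the log2 scale (SE 0.067, limma adjusted p = 0.00339) and Dst, which encodes the related plakin BP230 among other isoforms, fell by 0.56 (SE 0.13, adjusted p = 0.0293). Cd151, a tetraspanin that binds laminin receptors, stood at -0.30 ± 0.089 (adjusted p = 0.0612), and Krt14 at 0.22 ± 0.089 (adjusted p = 0.165). Plec was below 0 on 10 of 12 arrays and Dst on 12 of 12.

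Among 15 other basement membrane genes, 1 rose and 1 fell (median -0.082). Col4a5, a collagen IV chain of specialised basement membranes, rose by 0.40 ± 0.067 (limma adjusted p = 0.006), and Col4a2, which with Col4a1 makes the common collagen IV, stood lower at -0.42 ± 0.087 (adjusted p = 0.0171). Col4a1 was at -0.36 ± 0.11 (adjusted p = 0.0606) and Nid2, a linker of laminin to collagen IV, at -0.37 ± 0.13 (adjusted p = 0.0981). Of 25 integrin ligands, 0 rose and 6 fell (median -0.094), and 12 had an unadjusted p under 0.05. Those with the smallest p were Vwf (-0.80 ± 0.10), Icam2 (-0.76 ± 0.13), Ccn2 (-0.76 ± 0.14) and Postn (-0.81 ± 0.18). Of 31 genes of the adhesion complex inside the cell, 0 rose and 5 fell (median -0.073), with 9 at an unadjusted p under 0.05. Lims2, an adaptor at integrin tails, had the lowest value among the named ones at -1.07 ± 0.088, below 0 on 12 of 12 arrays, followed by Cav1 (-0.69 ± 0.12), Tns1 (-0.59 ± 0.11) and Parvb (-0.27 ± 0.044).

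In whole tumours, fewer cells of a type and less RNA per cell cannot be told apart, so markers of the cells that carry these receptors are set beside them. Of 14 endothelial markers, 13 fell and 0 rose, with a median of -0.72, and the array medians ran from -1.34 to -0.49. Their summed signal lay between 18691 and 27318 in KO RNA, against 30501 to 50615 in WT RNA, in normalized intensity units. These ranges do not overlap, and all 14 markers were well above background on all 12 arrays in both RNAs. Examples are Cdh5 (-0.83 ± 0.075), the cadherin of vessel walls, and Pecam1 (-0.65 ± 0.060), a surface protein of vessels. They moved in the direction of Lama4, Vwf and Icam2, and their part in those values was not tested. Of 10 smooth muscle and pericyte markers, 5 fell and 0 rose (median -0.44). Their summed signal lay between 25457 and 37682 in KO RNA, against 33502 to 53980 in WT RNA, and was lower in KO on 12 of 12 arrays. Itga7 and Itga8 are known from these cells, and the part of the cells in their values was not tested.

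Of 12 macrophage markers, 0 rose and 0 fell (limma, 1 at an unadjusted p under 0.05), with a median of -0.22. Their summed signal lay between 74464 and 299745 in KO RNA, against 127767 to 395463 in WT RNA, and was lower in KO on 8 of 12 arrays. All 12 were well above background on every array. Of 7 dendritic cell markers, 0 rose and 1 fell (Ccl17, -1.04 ± 0.27), with a median of -0.011, a summed signal of 3119 to 4963 in KO RNA against 2684 to 7168 in WT RNA (lower in KO on 8 of 12 arrays), and 5 well above background throughout. Both lists stand beside Itgax, and their part in its value was not tested. Of 11 T and NK cell markers 0 passed (limma, 0 at an unadjusted p under 0.05; summed signal 2451 to 4352 in KO RNA, 2537 to 3790 in WT RNA, lower in KO on 8 of 12 arrays). Of 10 neutrophil markers 1 rose (Mmp8), with sums of 1899 to 11585 in KO RNA and 2521 to 116117 in WT RNA, lower in KO on 7 of 12 arrays. Of 8 platelet markers 1 rose (Pf4, 1.74 ± 0.41) and 1 fell (Gp9, -0.33 ± 0.088). The list median was -0.083, and the array medians were below 0 on 10 of 12 arrays. Sums were 4096 to 67455 in KO RNA and 3508 to 24221 in WT RNA, and here KO was the lower one on only 1 of 12 arrays. Pf4 weighs heavily in these sums, with a median log2 signal of 14.3 in KO RNA. For Gp9, Ppbp and Treml1 that median was 6.79, 7.51 and 8.04. The platelet list stands beside Itga2b and Itgb3, and its part in their values was not tested.

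Of 11 epithelial markers, 0 rose and 0 fell (limma, 1 at an unadjusted p under 0.05; median -0.14), and all were well above background on all arrays. Their summed signal lay between 408620 and 910857 in KO RNA, against 432975 to 893984 in WT RNA, nearly the same range, and was lower in KO on 6 of 12 arrays. Of 5 basal cell markers 0 passed (median 0.0066, 1 at an unadjusted p under 0.05), with sums of 1126 to 1931 in KO RNA against 1061 to 1678 in WT RNA, lower in KO on 5 of 12 arrays. Of 4 alveolar type 1 markers 0 passed (0 at an unadjusted p under 0.05), with sums of 50185 to 148090 in KO RNA against 32590 to 174607 in WT RNA. The ranges overlap, but the alveolar type 1 sum was lower in KO on 11 of 12 arrays. Aqp5 had the highest signal of the 4, with a median log2 signal of 15.95 in KO RNA. Its ratio was below 0 on 10 arrays, that of Ager on 7, of Hopx on 6 and of Pdpn on 3. The list median was -0.041, and the array medians were below 0 on 6 of 12 arrays. The epithelial, basal and alveolar type 1 lists stand beside Itgb4, which these cells can carry, and their part in its value was not tested. Of 6 fibroblast markers, 1 rose (Lum, 1.13 ± 0.30, limma adjusted p = 0.0446) and 0 fell (median -0.19), with sums of 20785 to 84654 in KO RNA against 13900 to 79069 in WT RNA, lower in KO on 6 of 12 arrays. The array medians of the fibroblast list ran from -1.66 to 0.93. This list stands beside Itga11, and its part in the Itga11 value was not tested. Of 3 mesothelial markers 0 passed (1 at an unadjusted p under 0.05), with sums of 1398 to 6722 in KO RNA against 880 to 157470 in WT RNA, lower in KO on 8 of 12 arrays. A marker counted as measured only if its probe had passed the low-signal filter. By that filter alone, none of these markers could lie at background on every array in both RNAs.

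**Figure D5:**
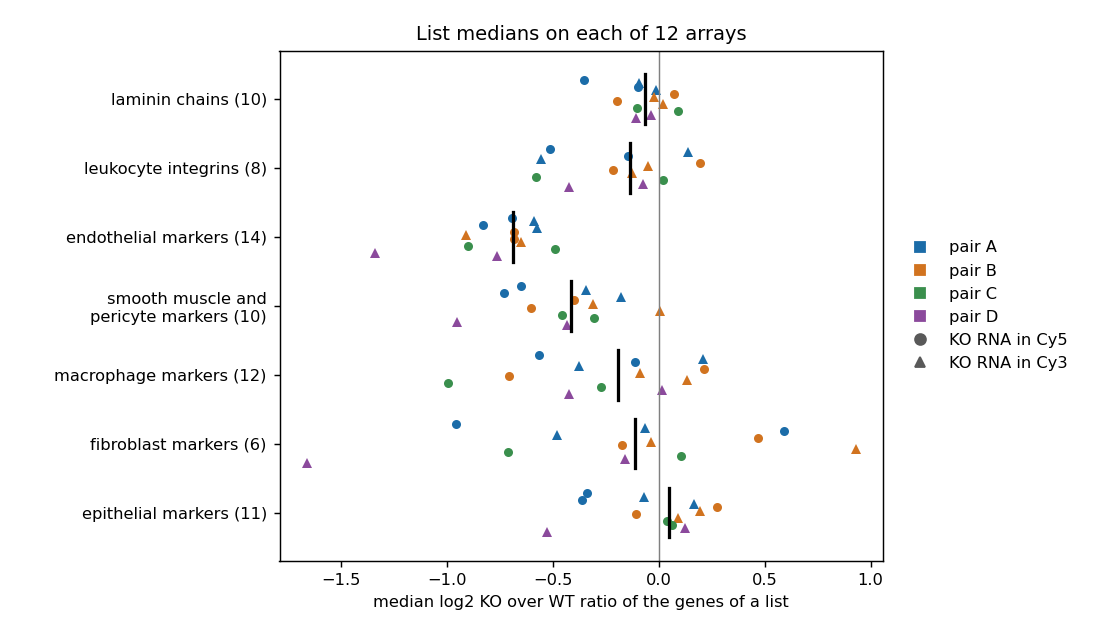
Each point is the median log2 KO over WT ratio of a list of genes on 1 array, with the number of genes in brackets, and black bars are medians over the 12 arrays. Colours mark pairs and shapes the dye of the KO RNA. The endothelial markers lie below 0 on all 12 arrays, while the laminin chains and the epithelial markers lie on both sides of 0.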

How the data were processed

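Tumour RNA was reverse transcribed with oligo-dT and amplified into Cy3 or Cy5 cRNA, per the labels' protocols, and KO and WT cRNA were hybridised together on 12 arrays. Spot intensities were extracted with Agilent Feature Extraction 10.1.1.1 (protocol GE2-v5_10_Apr08, design 014868), per the file headers. Deposited mean and local background intensities carry no normalization. Deposited flags of 0 or 1 say for each spot if it was outlying, saturated or well above background. The processed intensities of Agilent were background-subtracted, detrended and dye-normalized, per the file headers. The submitters' processing notes name limma for the authors' deposited log2 ratios, without its steps. Compared with the scanner values over 21650 of 41174 probes (those well above background for both RNAs on all 12 arrays), each of their columns ran KO over WT (r across probes 0.9979 to 0.9995, slope 1.005 to 1.041, medians over all probes -0.0111 to 0.00784), and how they were centred stays unknown.

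Mean signals were corrected with normexp (offset 50) and normalized by loess within arrays, with control and outlier spots (86 to 828 per array) at weight 0. Outlying local backgrounds took the median of their array and dye, a step chosen with earlier results of these data known. Probes well above background for KO or WT RNA on at least 6 of 12 arrays were kept (35531), and each gene took its brightest kept probe. limma (3.58.1, with statmod 1.5.0 and data.table, version 1.17.8, R 4.3.3) was run on ratios turned to KO over WT, with a dye term, the pair as a random block (correlation 0.0789) and Benjamini-Hochberg adjustment over 20582 genes (threshold 0.05). A block on red over green ratios, which cannot take up the KO over WT difference of a pair, was an alternative. Printed log2 signals were also quantile-normalized between arrays on the average signal. An F test over 1 coefficient a pair compared pairs.

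The accession matched RefSeq (GRCm38.p6) for 22951 probes, 50 of the 80 integrin and laminin probes among them. The 80 kept the gene name of the file. All other probes took the RefSeq name where there was a match, and otherwise that of the file. Array coordinates are on build mm7, per the file headers, and promoter sequences on GRCm38.p6. The members, lists and tests were chosen with earlier results of these data known. All genes of the rule were named except 1, which stays in the counts and medians and is not reported here, up to 4 of smallest p from each other list, and Dnmt3a in any case. The fits were checked on simulated data with 12 arrays in 4 pairs. They recovered 71 of 100 changes of 0.5 on the log2 scale and 97 of 100 changes of 1, with 0 of wrong sign. Of the simulated calls 7.18% were false, more than the threshold aims at, which bears on calls just inside it such as Itgax and Lamc1. The fitted pair correlation was 0.0228 where 0.0789 was simulated. Alternatives varied the background correction, normalization, filter, probe choice, dye term, block and arrays. The number of arrays limits the precision.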

Additional observations from a re-analysis of the deposited data

How the results depend on the processing

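The count of integrin and laminin genes called, 7 of 37, stayed at 5 to 7 with local backgrounds as deposited, Agilent's processed signals, other filters, the mean of probes, no dye term, no block or another block, and the authors' ratios. It was 1 with median centring (359 of all genes called, against 1471), 0 with pair means as values (48 of all genes), and 1, 4, 2 and 3 without pair A, B, C and D. It was 0, 0 and 0 within slides 1, 2 and 3 (limma, 10, 5 and 11 at an unadjusted p under 0.05), where few arrays were left, and 2 with pairs A and B alone, an alternative added after the data were seen. Without single arrays it ranged from 3 to 7. Of 74 kept probes, 7 passed, against 1 with median centring and 0 with pair means (17 at an unadjusted p under 0.05). For differences between pairs, 0 genes passed, and 1 (Itga9) passed with Agilent's processed signals, 1 with median centring, 1 without the dye term and 1 with the authors' ratios. The 7 called genes kept their direction under all 32 alternatives. Of the 20 that leave out no single array, 15 kept the call of Itga11, 13 of Itgb4, 12 of Itga9, 10 of Itga5, 8 each of Lama4 and Lamc1 and 7 of Itgax. Itgb3, not called in the main fit (0.027), fell with the mean of its probes (-0.28, limma adjusted p = 0.0303). The cause of these changes was not tested. Every value is a ratio of KO to WT RNA on the same array, so KO and WT were paired within arrays in all fits. Probes of low signal on slide 3 limit what pairs C and D can show.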
